A study of Mus musculus with 16 samples.

Results

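Small RNA of mature mouse sperm was compared between Dnmt2+/+ and Dnmt2-/- males that were all fed a high-fat diet (HFD), with 2 libraries of each genotype. These 4 libraries of the 16 in the series were chosen by genotype and diet from the labels, and no measured value entered the choice. The males were C57BL/6NCrl, and per the labels the Dnmt2-/- line carries the Dnmt2tm1Bes allele backcrossed to that strain. Sperm came from the cauda epididymis. Another 4 sperm libraries, 2 of each genotype on a normal diet (ND), entered the estimate of the spread between libraries and are given only where a value on HFD is set against them. The labels do not say whether the libraries of a group came from separate animals, nor how many animals gave each. The p-values therefore set a genotype difference only against the spread between libraries within groups, and that spread may be technical. The knockout itself could not be checked, because small RNA reads do not measure the Dnmt2 mRNA or protein.

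DNMT2, also named TRDMT1, is a methyltransferase that, despite its name, mainly methylates RNA. It places m5C on cytosine 38 of the anticodon loop of tRNA-Asp-GTC, tRNA-Gly-GCC and tRNA-Val-AAC, next to the anticodon, and this methyl group is known to protect the loop from cleavage by ribonucleases such as angiogenin. Mature sperm hold many 5' fragments of tRNAs that end near the anticodon, together with rRNA fragments and microRNAs, part of which is taken up in the epididymis. The comparison therefore asks, on HFD, how much of each small RNA class is present without Dnmt2, where the fragments start and end, and which bases were read differently from the tRNA. The reads carry no direct measure of m5C.

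The fragments on which the comparisons turn are printed here as they were read, 5' to 3', with T for U. Bases are counted from 1 at the 5' end of each RNA. The 3 fragments of the DNMT2 substrate tRNA-Gly-GCC that follow show neighbouring end positions, with the last base in capitals. They stop before the anticodon, and a tRNA-Gly-CCC shares these bases, so the reads do not tell these tRNAs apart.
tRNA-Gly-GCC, end 30: gcattggtggttcagtggtagaattctcgC
tRNA-Gly-GCC, end 31: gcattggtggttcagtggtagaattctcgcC
tRNA-Gly-GCC, end 32: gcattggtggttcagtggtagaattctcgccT
For tRNA-Asp-GTC, tRNA-Val-CAC and 2 further tRNAs, capitals mark the last base or the part of the anticodon that the fragment holds. The tRNA-Val-CAC fragment stands for tRNA-Val-AAC/CAC, because it stops before the anticodon.
tRNA-Asp-GTC, end 34: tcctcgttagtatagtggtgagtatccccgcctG
tRNA-Asp-GTC, end 36: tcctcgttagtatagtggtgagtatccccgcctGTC
tRNA-Val-CAC, end 33: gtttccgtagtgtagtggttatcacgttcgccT
tRNA-Glu-TTC, end 30: tcccacatggtctagcggttaggattcctG
tRNA-Glu-TTC, end 36: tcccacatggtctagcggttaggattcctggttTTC
mitochondrial tRNA-His, end 43: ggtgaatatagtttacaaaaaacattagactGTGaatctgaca

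The Dnmt2+/+ libraries held 10296280 and 10165031 reads and the Dnmt2-/- libraries 10305631 and 13305449, and values are read counts scaled to a common library total (CPM). Throughout, the replicate 1 value of a genotype is given before the replicate 2 value. A count of 0 allows up to 0.295 CPM in the shallowest of these libraries, and intervals and such limits cover counting error only. Dnmt2-/- replicate 2 stood apart from the other 3 libraries on HFD. Its log2 CPM of 50460 sequences had a correlation of 0.743 to 0.765 with them, while these 3 had 0.890 to 0.916 among themselves. The share of tRNA-Glu-CTC reads whose last base differs from the tRNA was 20.1% and 21.2% in Dnmt2+/+ and 20.4% in Dnmt2-/- replicate 1, and 6.22% in Dnmt2-/- replicate 2. Its share was the lowest of the 4 for 14 of 14 tRNAs measured. It stood apart less when the ND libraries were included: the library it correlated with most was Dnmt2+/+ replicate 2 on ND, at 0.849. The last-base share of tRNA-Glu-CTC on ND was 4.08% and 12.5% in Dnmt2+/+ and 6.32% and 3.44% in Dnmt2-/-. The labels give no sequencing batch. Class shares, and many of the log2 fold changes that the results turn on, are therefore also given without Dnmt2-/- replicate 2. This leaves 1 Dnmt2-/- library on HFD, assumed to vary like the other groups.

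5' tRNA fragments made up a larger share of the reads in both Dnmt2-/- libraries than in both Dnmt2+/+ libraries, counted as exact matches over all reads. Their share was 23.57% and 26.01% in Dnmt2+/+ (24.8% ± 1.73, SD, n = 2) and 31.39% and 32.98% in Dnmt2-/- (32.2% ± 1.12, SD, n = 2). The genotypes did not overlap, and the difference was 7.39 percentage points, or 6.60 with Dnmt2-/- replicate 1 alone. The Wilson 95% intervals of the 4 shares are at most 0.06 points wide, so counting error is small beside the spread between libraries. An exact permutation test of 2 against 2 libraries cannot give a p below 1 in 3, and the shares carry no test. When reads with 1 substituted or 1 deleted base were counted too, the shares were 42.7% and 47.3% in Dnmt2+/+ and 58.8% and 53.0% in Dnmt2-/-.

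The rRNA fragments were at 17.3% and 17.2% in Dnmt2+/+ and at 9.67% and 18.3% in Dnmt2-/-. The difference of -3.26 points was made by Dnmt2-/- replicate 1, at -7.58 points from the Dnmt2+/+ mean, while replicate 2 lay 1.05 points above it. With 1 substitution allowed the shares were 23.2% and 23.6% against 12.9% and 20.8%, a difference of -6.59 points with both Dnmt2-/- libraries lower. With assigned reads as the denominator they were 35.3% and 34.6% against 20.1% and 33.4%, again without overlap. MicroRNAs were at 7.01% and 5.33% in Dnmt2+/+ and at 5.92% and 2.61% in Dnmt2-/-. Here the low value was that of Dnmt2-/- replicate 2: the difference was -1.91 points over both libraries and -0.253 with replicate 1 alone. Fragments from the 3' part of tRNAs were scarce, at 0.159% and 0.102% in Dnmt2+/+ and 0.0788% and 0.0714% in Dnmt2-/-, without overlap of the genotypes. About as many reads matched no reference used here (50.9% and 50.4%, 51.9% and 45.3%) as matched one. In such bulk samples, fewer cells of a type and less RNA per cell cannot be told apart.

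**Figure D1:**
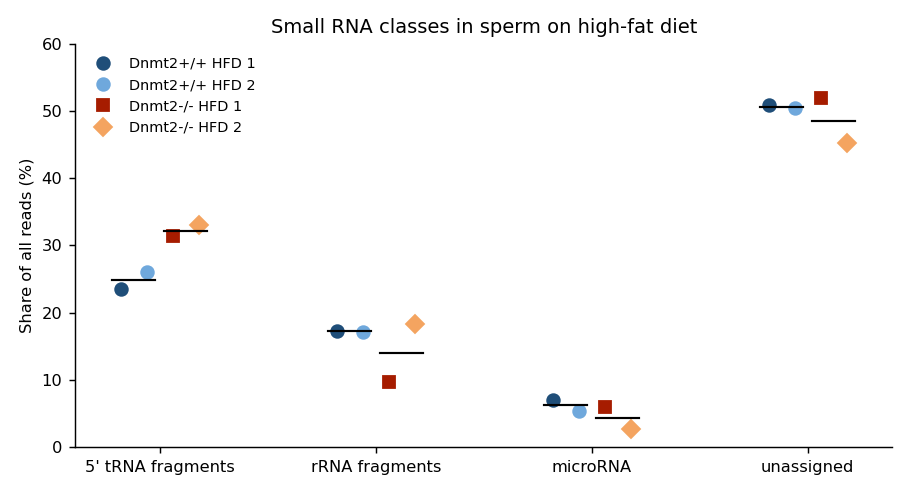
Share of all reads (%) in each HFD library for the small RNA classes, one point per library, with a line at each genotype's mean. The 2 Dnmt2-/- libraries lie above both Dnmt2+/+ libraries for 5' tRNA fragments, while Dnmt2-/- replicate 1 is lowest for rRNA and replicate 2 is lowest for microRNA.

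Counted by RNA of origin, the higher 5' tRNA share sat mostly in tRNA-Glu-CTC, the most abundant family, while the DNMT2 substrates gave no common direction. The counts of 262 families were tested with edgeR's quasi-likelihood test, with all reads of a library as its size. No family (0 of 262, 0%) passed a Benjamini-Hochberg adjusted p of 0.05, none had an unadjusted p under 0.05, and the lowest adjusted p was 0.979; DESeq2 also called 0. Both Dnmt2-/- libraries were below both Dnmt2+/+ libraries for 98 families (37.4%) and above them for 10 (3.82%). The median log2 fold change of all families was -0.46, and -0.24 without Dnmt2-/- replicate 2. With the scaling factors of edgeR's TMM, which centre the bulk of families, it was 0.11, so a low negative value below is a value relative to all reads and several turn positive under that scaling.

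5' fragments of tRNA-Glu-CTC, a glutamate tRNA, were at 136192 and 141491 CPM in Dnmt2+/+ and at 198487 and 203155 CPM in Dnmt2-/-. The 4 values did not overlap between genotypes, and the log2 fold change was 0.53 ± 0.42 SE (0.52 without Dnmt2-/- replicate 2), which did not pass. The tRNA with the other glutamate anticodon did not share this: 5' fragments of tRNA-Glu-TTC were at 5827 and 6083 CPM against 6195 and 3986 CPM.

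Among the substrates, 5' fragments of tRNA-Gly-GCC were at 74592 and 91979 CPM in Dnmt2+/+ and at 91374 and 110892 CPM in Dnmt2-/- (log2 fold change 0.28 ± 0.41 SE, 0.13 without Dnmt2-/- replicate 2). The ranges of the genotypes overlapped. Those of tRNA-Val-AAC/CAC, whose members share these bases, were at 9970 and 11391 CPM against 7572 and 3068 CPM (-1.005 ± 0.62 SE). Without Dnmt2-/- replicate 2 the log2 fold change was -0.50 ± 0.70 SE. Both Dnmt2-/- values were lower, and replicate 2 was the lowest by far. 5' fragments of tRNA-Asp-GTC were much rarer, at 102 and 130 CPM against 119 and 46.1 CPM, and only Dnmt2-/- replicate 2 was low.

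Of the other fixed tRNAs, tRNA-His-GTG gave 3176 and 3963 CPM of 5' fragments in Dnmt2+/+ and 6308 and 3723 CPM in Dnmt2-/-, with overlap. tRNA-Lys-CTT gave 396 and 501 CPM against 283 and 155 CPM (log2 fold change -1.03, and -0.66 without Dnmt2-/- replicate 2), and tRNA-Gly-CCC reads that are its own gave 89.6 and 98.4 CPM against 74.0 and 22.3 CPM. Both were lower in both Dnmt2-/- libraries, most in replicate 2. Over the 23 families of 5' tRNA fragments tested, 9 were lower and 2 higher without overlap, a share near that of all families.

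3' fragments of tRNA-Asp-GTC were lower in both Dnmt2-/- libraries, at 508 and 283 CPM in Dnmt2+/+ and 215 and 147 CPM in Dnmt2-/- (log2 fold change -1.13 ± 0.86 SE, -0.88 without Dnmt2-/- replicate 2). The Dnmt2+/+ libraries themselves differed nearly as much as the genotypes. Those of tRNA-Glu-CTC were at 129 and 102 CPM against 54.7 and 27.9 CPM (-1.48 ± 0.89 SE, -1.08 without it), and those of tRNA-Glu-TTC at 329 and 248 CPM against 177 and 124 CPM. The 3' fragments of the other 2 substrates overlapped: tRNA-Gly-GCC gave 98.9 and 83.7 CPM against 75.9 and 106 CPM, and tRNA-Val-AAC/CAC 54.4 and 41.6 CPM against 45.1 and 52.6 CPM. For tRNA-Glu-CTC the 5' fragments were thus higher and the 3' fragments lower in both Dnmt2-/- libraries, and neither value passed the test.

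The position where 5' fragments end was compared next, as a share of the fragments of the same tRNA that start at its first base, so that the amount of a tRNA does not enter. No end position passed (0 of 77, 0%; 7 had an unadjusted p under 0.05 in edgeR's quasi-likelihood test, lowest adjusted p 0.2). Fragments that hold the whole anticodon took a smaller share in both Dnmt2-/- libraries for 7 of 10 tRNAs compared, a larger share for 1 and overlapped for 2 (tRNA-Gly-CCC and tRNA-Lys-CTT). tRNA-Glu-TTC, tRNA-Glu-CTC and the 3 substrates were among the 7. For tRNA-Glu-TTC they were 21.6% and 16% in Dnmt2+/+ against 3.52% and 8.87% in Dnmt2-/-, for tRNA-Asp-GTC 31.6% and 24.0% against 8.45% and 16.6%, and for tRNA-Gly-GCC 0.771% and 0.967% against 0.309% and 0.21%. In tRNA-Gly-CCC they were 6.76% and 8.49% against 4.47% and 11.6%. For mitochondrial tRNA-His, the 1 with larger shares, fragments that end past the anticodon were at 45.3% and 58.0% against 73.1% and 78.5%. Both Dnmt2-/- shares were below both Dnmt2+/+ shares at 24 positions (31.2%) and above them at 17 (22.1%). Shares of a tRNA add up to 100%, so its positions do not move freely of each other.

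The lowest p was that of base 32 of tRNA-Gly-GCC, the base before the anticodon. Fragments ending there were 18.6% and 15.8% in Dnmt2+/+ and 8.27% and 8.11% in Dnmt2-/- (log2 fold change -1.07 ± 0.23 SE, edgeR adjusted p = 0.2). Each genotype's libraries lay close together, and the value without Dnmt2-/- replicate 2 was -1.05 (edgeR adjusted p = 0.434). On ND the same end took 9.05% and 10.4% in Dnmt2+/+ and 10.5% and 8.52% in Dnmt2-/-, so it was the Dnmt2+/+ libraries on HFD that were high. The test of the difference between diets did not pass (edgeR adjusted p = 0.710). The neighbouring ends overlapped: base 30 took 28.94% and 36.76% against 42.15% and 27.97%, and base 31 took 38.17% and 27.99% against 32.28% and 50.09%.

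tRNA-Glu-TTC is no known DNMT2 substrate. Fragments that end at base 36, its last anticodon base, were 21.4% and 15.8% in Dnmt2+/+ and 3.44% and 8.67% in Dnmt2-/- (-1.62 ± 0.59 SE, edgeR adjusted p = 0.427). Without Dnmt2-/- replicate 2 the value was -2.44 (edgeR adjusted p = 0.434). Shorter fragments were more frequent there: those ending at base 30 were 11.0% and 13.4% against 18.6% and 22.1%. Ends at base 31 were 15.8% and 19.7% against 30.1% and 22.6%, again without overlap. In tRNA-Glu-CTC, base 36 was used by 3.990% and 4.947% against 1.202% and 3.081%. On ND, base 36 of tRNA-Glu-TTC took 3.01% and 6.76% in Dnmt2+/+ and 5.97% and 4.01% in Dnmt2-/-. These shares all lay below those of Dnmt2+/+ on HFD.

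tRNA-Val-AAC/CAC fragments ended at base 32 in 15.1% and 13.5% of Dnmt2+/+ and in 22.4% and 22.2% of Dnmt2-/- reads (0.64 ± 0.28 SE, edgeR adjusted p = 0.510; 0.65 without Dnmt2-/- replicate 2). At base 34, the first of the anticodon, the shares were 25.41% and 28.02% against 16.91% and 19.40%. The short fragments ending at base 23 were at 13.2% and 13.3% against 12.5% and 22.9%, where only Dnmt2-/- replicate 2 was high. In tRNA-Pro-AGG, an end at base 29 took 25.9% and 23.1% against 10.0% and 13.4%, and one at base 31 took 12.1% and 18.1% against 32.8% and 20.2%. Fragments of tRNA-His-GTG ended at base 34 in 29.9% and 17.00% against 10.2% and 12.3%, lower in both Dnmt2-/- libraries, and at base 32 in 13.7% and 13.3% against 14.8% and 22.3%, higher in both. Its base 35 overlapped, at 19.1% and 33.4% against 41.2% and 17.04%.

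tRNA-Asp-GTC had too few 5' fragments for the test, with 604 in the smallest HFD library, and is given as values. Ends at base 34 took 32.5% and 32.7% in Dnmt2+/+ and 55.3% and 38.7% in Dnmt2-/-. Ends at base 36 took 25.1% and 18.9% against 6.52% and 11.8%. The Dnmt2-/- fragments thus stopped more often at the first anticodon base and less often at the last, in both libraries. Base 35 lay at 18.5% and 19.0% against 19.3% and 18.9%, nearly level. On ND the genotypes overlapped at bases 34 and 36. Base 34 took 50.3% and 42.9% in Dnmt2+/+ and 43.3% and 59.0% in Dnmt2-/- there. Base 36 took 14.7% and 11.8% against 19.5% and 10.6%.

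Fragments ending at or after position 38, the target of DNMT2, were rare for all substrates. For tRNA-Asp-GTC they were 6.19% and 4.57% in Dnmt2+/+ and 1.74% and 4.64% in Dnmt2-/-, which overlap. For tRNA-Gly-GCC, where position 38 is base 37 of the read, they were 0.201% and 0.144% against 0.0916% and 0.0456%. For tRNA-Val-AAC/CAC they were 0.0402% and 0.0187% against 0.0228% and 0.0252%. For none of the 3 substrates were both Dnmt2-/- values above both Dnmt2+/+ values.

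Fragments of mitochondrial tRNA-His went the other way. They ended at base 43 in 8.92% and 18.9% of Dnmt2+/+ and in 47.1% and 49.5% of Dnmt2-/- reads (1.79 ± 1.76 SE, and 1.757 without Dnmt2-/- replicate 2). At base 44, the longest read in the data, the shares were 0.0699% and 0.157% against 2.45% and 2.24% (4.39 ± 1.54 SE, edgeR adjusted p = 0.427). Without Dnmt2-/- replicate 2 the value was 4.448. Ends at base 34 were 34.5% and 22.3% against 14.3% and 15.1%. On ND base 43 took 0.140% and 25.7% in Dnmt2+/+ and 25.1% and 2.56% in Dnmt2-/-, so libraries of 1 group differed widely there. When only the 4 HFD libraries were tested, 5 of 77 positions (6.49%) passed in edgeR: bases 43 (adjusted p = 0.0203) and 44 (0.00043) of this tRNA were higher, and its base 36 and bases 35 and 36 of tRNA-Glu-TTC (0.0383 each) were lower. With the ND libraries in the estimate of the spread, 0 of these passed.

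**Figure D2:**
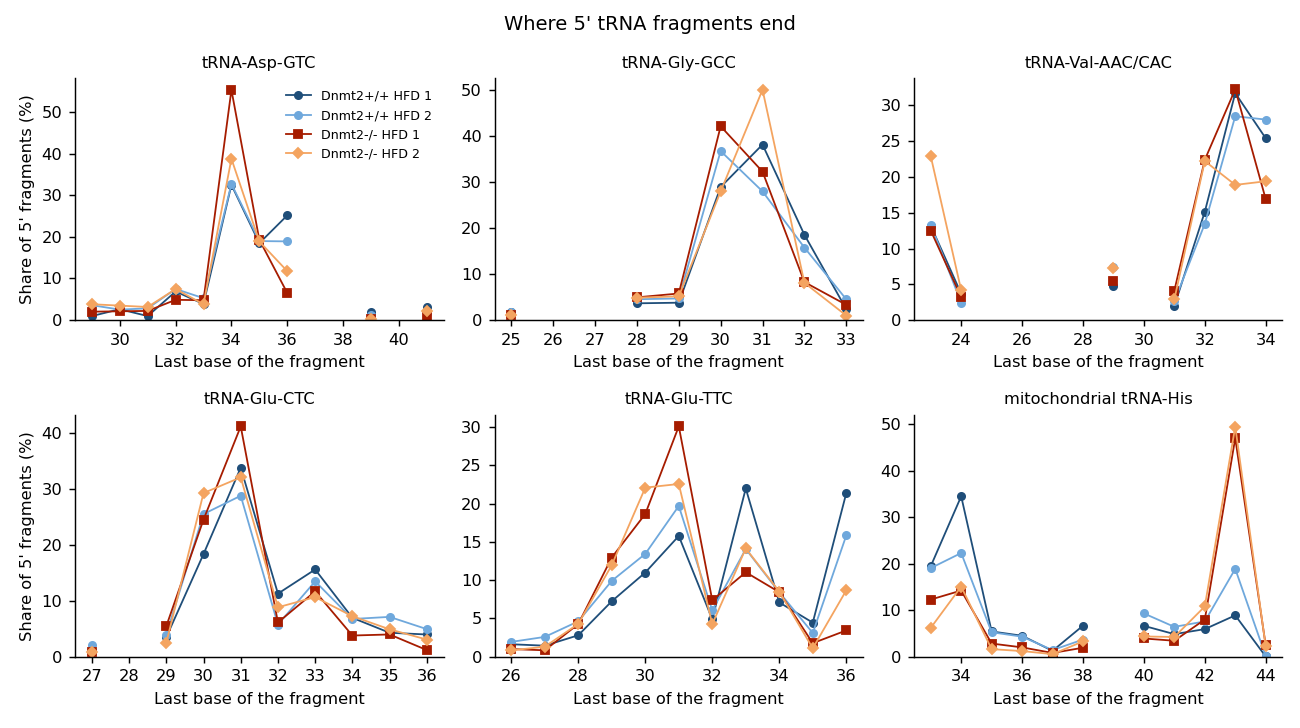
Share of the 5' fragments of 6 tRNAs (%) by the last base of the fragment, one line per HFD library. Positions with a mean share under 1% are not drawn and break the lines. For tRNA-Asp-GTC, positions were instead left out by their highest share in the HFD libraries. The Dnmt2-/- lines lie below both Dnmt2+/+ lines at base 36 of tRNA-Glu-TTC and tRNA-Asp-GTC. They lie above both at base 43 of mitochondrial tRNA-His.

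The mean end position condenses these shares, over 14 tRNAs with at least 604 fragments in every library. It was smaller in both Dnmt2-/- libraries for 9 tRNAs, larger for 1 (mitochondrial tRNA-His) and overlapped for 4. The shifts were under 2 bases except in mitochondrial tRNA-His: tRNA-Glu-TTC had mean ends of 32.5 and 31.8 against 31.1 and 31.4, and tRNA-Gly-GCC of 30.64 and 30.51 against 30.35 and 30.46. Mitochondrial tRNA-His had 36.3 and 37.5 against 39.7 and 40.3. The share of last bases that differ from the tRNA, which was far lower in Dnmt2-/- replicate 2 than in the other 3 libraries, decides which reads match exactly, and its part in these ends was not tested.

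At the other end of the molecule, 3' fragments that carry the complete CCA tail, the bases added to every mature tRNA, were too few for a test of where they start: no tRNA reached 1000 such reads in each of the 8 libraries. Reads of tRNA-Asp-GTC numbered 462 and 270 in Dnmt2+/+ and 212 and 96 in Dnmt2-/-. Counted as bases from the start of the read to the end of the tail, a length of 37 was the most frequent in each, at 23.4% and 24.8% against 26.9% and 25.0%. A length of 39 took 20.6% and 18.9% against 11.8% and 11.5%, and 40 took 12.1% and 10.7% against 6.13% and 4.17%, both lower in both Dnmt2-/- libraries on few reads.

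tRNA-Gly-GCC fragments started mostly 22 bases before the end of the tail, at 82.8% and 80.2% in Dnmt2+/+ and 80.6% and 77.0% in Dnmt2-/-. The start is thus in the T arm and not in the anticodon loop. tRNA-Val-AAC/CAC started at 23 bases in 42.5% and 40.7% against 37.7% and 35.7%, and at 22 bases in 29.1% and 33.1% against 34.8% and 36.6%. tRNA-Glu-TTC started at 36 bases in 53.0% and 52.4% against 52.9% and 61.5%. A single start dominated mitochondrial tRNA-His, with 97.0% to 99.2% of its reads 40 bases long in the 4 libraries.

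Only tRNA-Asp-GTC had enough 3' fragments to test the tail in which they end. Most ended after the first C of the tail, at 66.1% and 60.1% in Dnmt2+/+ and 64.4% and 65.3% in Dnmt2-/-, and complete CCA tails were at 8.84% and 9.38% against 9.56% and 4.92%. Of its 4 tail states 0 (0%) passed, with 0 at an unadjusted p under 0.05 and a lowest adjusted p of 0.784 in edgeR. Most tails were complete in tRNA-Gly-GCC, at 66.8% and 71.3% against 69.7% and 66.7%. In tRNA-Glu-TTC complete tails were at 35.2% and 36.9% against 45.6% and 49.8%, and tails of a single C at 42.1% and 41.2% against 33% and 24.7%, both without overlap and without a test.

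tRNA-His-GTG carries a G that is added to its 5' end after transcription. Of its 5' fragments, 64.9% and 60.7% in Dnmt2+/+ and 49.4% and 72.7% in Dnmt2-/- began with this G. Those that lacked it and began at base 2 were 32.1% and 37.0% against 46.8% and 24.9%. The 2 Dnmt2-/- libraries lay on opposite sides of the Dnmt2+/+ libraries.

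Bases read differently from the tRNA can mark modified bases that reverse transcription misreads, or copies of a tRNA gene that differ by a base. They can also mark errors in the typed references. These cannot be told apart here. A substitution is written as the base of the tRNA, its position and the base read. Of 707 sites 0 (0%) passed in edgeR's quasi-likelihood test, 19 had an unadjusted p under 0.05, and the lowest adjusted p was 0.341. With the last base of each read left out, 0 of 509 passed, 12 had an unadjusted p under 0.05, and the lowest adjusted p was 0.187.

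Cytosine 38 was read as cytosine in almost all reads of tRNA-Asp-GTC, tRNA-Gly-GCC and tRNA-Val-CAC in both genotypes. m5C itself pairs like cytosine, so this does not measure methylation. Of reads over C38 of tRNA-Asp-GTC, 15 of 7203 (0.208%) and 16 of 4569 (0.350%) were substituted in Dnmt2+/+ and 19 of 11311 (0.168%) and 7 of 2870 (0.244%) in Dnmt2-/-. For tRNA-Gly-GCC the rates were 0.192% and 0.196% against 0.0939% and 0.202%. For tRNA-Val-CAC, which is not the named substrate tRNA-Val-AAC but differs from it in the anticodon, 0 of 495 and 1 of 382 were substituted against 0 of 319 and 2 of 834, where exact 95% binomial intervals reach up to 1.45%. No value is given for tRNA-Val-AAC itself. At these depths no difference between genotypes was detectable in the tRNAs given.

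An A of the T loop is often methylated to m1A, which reverse transcription misreads, and it was the most substituted base of several tRNAs. In tRNA-Gly-GCC, A56T was found in 57.5% and 61.3% of Dnmt2+/+ and 53.5% and 57.4% of Dnmt2-/- reads over it when the last base of reads was left out. In tRNA-Glu-CTC, A57T was at 45.5% and 51.5% against 33% and 45.5%, and in tRNA-Gly-CCC, A56T was at 70.3% and 70.6% against 64.2% and 68.2%. tRNA-Asp-GTC had only 4.23% and 4.57% against 3.18% and 3.46%, and tRNA-Glu-TTC at most 0.078%. Dnmt2-/- replicate 1 was the lowest of the 4 libraries in each of these tRNAs but tRNA-Glu-TTC, while replicate 2 lay at or just under the lower Dnmt2+/+ library in tRNA-Gly-GCC and tRNA-Glu-CTC.

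Other frequent substitutions gave no common order. tRNA-Lys-CTT G29A was at 70.7% and 56.4% in Dnmt2+/+ and 83.8% and 77.2% in Dnmt2-/-, and tRNA-Ser-GCT G6A at 18.7% and 20% against 28.74% and 32.17%. These 2 were higher in both Dnmt2-/- libraries. tRNA-Asp-GTC G20T was at 29.6% and 26.5% against 28.3% and 35.1%, tRNA-Cys-GCA G16T at 33.15% and 37.24% against 43.24% and 32.99%, and tRNA-Glu-TTC G66A at 33.8% and 32.2% against 31.1% and 40.4%. Each of these 3 overlapped between the genotypes.

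The anticodon loop of tRNA-Glu-CTC held 1 site, C32T, that is singled out because of its values. C32T was at 1.37% and 0.837% in Dnmt2+/+ and 0.302% and 0.424% in Dnmt2-/- on HFD (-1.61 ± 0.28 SE, edgeR adjusted p = 0.187, last base of reads left out). On ND the order was the opposite, with 0.0864% and 0.078% in Dnmt2+/+ against 1.35% and 1.43% in Dnmt2-/-. With the last base left out, which was decided after seeing the data, this was the 1 site of 509 that passed edgeR's test of the difference between diets in the genotype effect, at -5.68 ± 0.42 SE (adjusted p = 0.00371). With all bases of the reads, 0 of 707 sites passed that test in edgeR, 19 had an unadjusted p under 0.05 and the lowest adjusted p was 0.723. C32T was then at 5.93% and 3.77% against 4.59% and 1.66% on HFD.

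Reads that lack 1 base of the tRNA were frequent at 1 place, the pair of G bases at 6 and 7 of tRNA-Glu-CTC. A single G was absent in 23.3% and 22.7% of its reads in Dnmt2+/+ and in 26.7% and 29.6% in Dnmt2-/- (0.29 ± 0.11 SE, edgeR adjusted p = 0.534). The genotypes did not overlap on HFD, and without Dnmt2-/- replicate 2 the value was 0.22 (edgeR adjusted p = 0.797). On ND they did overlap, at 24.7% and 30.4% in Dnmt2+/+ and 24.7% and 24.3% in Dnmt2-/-. The G bases lie in the acceptor stem, and a gene copy that lacks a base cannot be told apart from a skipped base here. Of 21 such sites 0 (0%) passed in edgeR, and 1, this one, had an unadjusted p under 0.05. In tRNA-Gly-GCC a G was absent at the same place in 6.63% and 7.19% against 6.60% and 8.36%, and in tRNA-Ser-GCT in 2.95% and 2.63% against 4.12% and 4.97%. In tRNA-Pro-AGG the order was the opposite, at 3.30% and 4.10% against 2.13% and 2.52%. Over the 21 sites, 8 were higher and 6 lower in both Dnmt2-/- libraries.

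**Figure D3:**
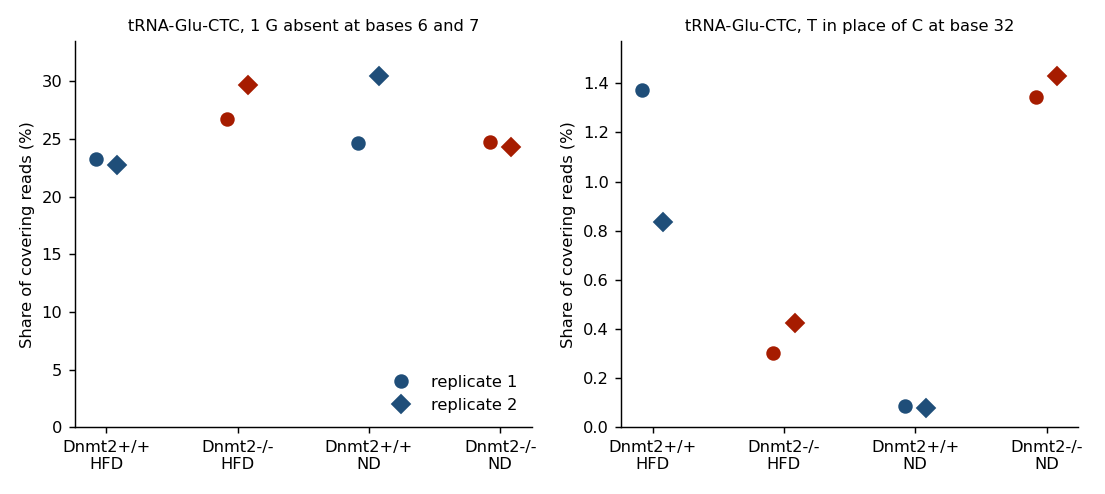
Share of covering reads of tRNA-Glu-CTC (%) that lack 1 G at bases 6 and 7 (left) and that read T at C32 (right), in each sperm library by genotype and diet. The right panel leaves out the last base of reads, and with all bases the genotypes overlap on HFD. On HFD both Dnmt2-/- libraries lie above Dnmt2+/+ on the left and below on the right, and on ND the right-hand order is the opposite.

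Fragments of 28S rRNA, the large subunit's RNA, were the main part of the rRNA reads. Its main end on HFD, at base 36, and the ends at which 1 library stood apart are printed, with the last base in capitals.
28S, end 34: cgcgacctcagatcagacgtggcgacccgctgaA
28S, end 36: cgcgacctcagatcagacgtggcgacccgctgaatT
28S, end 40: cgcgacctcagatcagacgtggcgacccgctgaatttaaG
All 28S reads were at 150008 and 144953 CPM in Dnmt2+/+ and at 79872 and 159256 CPM in Dnmt2-/-, so only Dnmt2-/- replicate 1 was low. The share ending at base 34 was 8.68% and 9.24% against 9.82% and 31.2%, and the share ending at base 40 was 18.6% and 11.5% against 12.6% and 2.71%. It was Dnmt2-/- replicate 2 that had other ends among the HFD libraries. On ND base 34 took 23.6% and 8.25% in Dnmt2+/+ and 12.6% and 36.8% in Dnmt2-/-. Base 40 took 1.54% and 1.27% against 2.02% and 1.81% there. On HFD base 36 was lower in both Dnmt2-/- libraries, at 21.2% and 20.9% against 17.9% and 15.9%. Of 45 rRNA end positions 0 (0%) passed, 1 had an unadjusted p under 0.05, and the lowest adjusted p was 0.994 in edgeR.

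**Figure D4:**
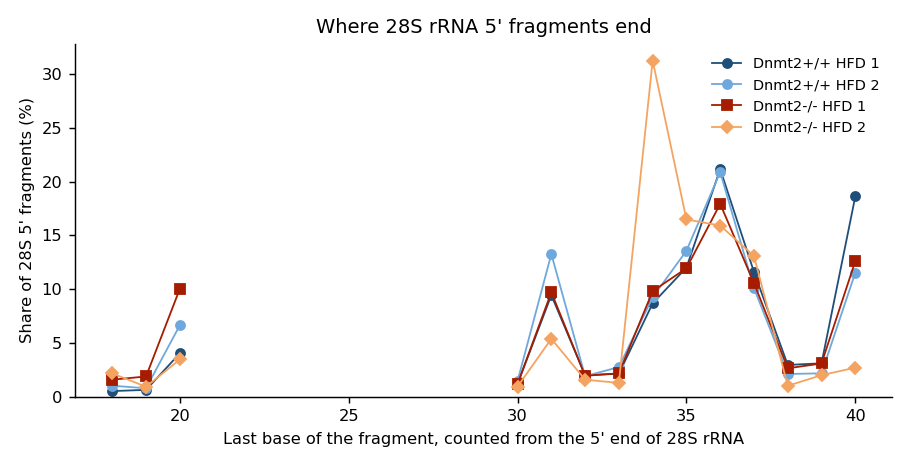
Share of 28S rRNA fragments that start at base 1 (%) by their last base, one line per HFD library. Dnmt2-/- replicate 2 departs from the other 3 lines at bases 34 and 40, at 31.2% and 2.71%.

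The smaller rRNAs were lowest in the library that was lowest for 28S. 18S was at 8375 and 8749 CPM in Dnmt2+/+ against 6010 and 7653 CPM in Dnmt2-/-, and 5.8S at 10806 and 14575 CPM against 8113 and 11151 CPM. 5S was at 4119 and 3339 CPM against 2717 and 4901 CPM. Dnmt2-/- replicate 1 was the lowest of the 4 for each of these, and 18S was lower in both Dnmt2-/- libraries per all reads, while the log2 fold changes of 28S, 18S and 5.8S turn positive under TMM and DESeq2 scaling. Y RNA fragments, from small RNAs bound by the Ro protein, were at 313 and 211 CPM against 230 and 104 CPM for Y1 and at 48.1 and 66.5 CPM against 89.5 and 22.8 CPM for Y3.

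The 10 most abundant microRNAs of those matched are shown as mature RefSeq sequences (GRCm38.p6), with the seed at bases 2 to 8 in capitals. Of these, 5 are let-7 members with the same seed, and miR-10a and miR-10b share another.
let-7f-5p: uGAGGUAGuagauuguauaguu
let-7c-5p: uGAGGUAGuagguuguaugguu
let-7a-5p: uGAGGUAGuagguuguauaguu
let-7b-5p: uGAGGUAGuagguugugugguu
let-7g-5p: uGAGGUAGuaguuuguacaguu
miR-10a-5p: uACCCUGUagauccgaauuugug
miR-10b-5p: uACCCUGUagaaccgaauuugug
miR-148a-3p: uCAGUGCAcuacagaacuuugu
miR-200c-3p: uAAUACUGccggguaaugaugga
miR-21a-5p: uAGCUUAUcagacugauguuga
The let-7 members summed to 45320 and 32590 CPM over 8 arms in Dnmt2+/+ and to 39820 and 11380 CPM in Dnmt2-/-. Dnmt2-/- replicate 1 lay between the Dnmt2+/+ libraries and replicate 2 far below them.

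let-7f-5p, the most abundant, was at 17916 and 14199 CPM in Dnmt2+/+ and at 13448 and 4605 CPM in Dnmt2-/- (log2 fold change -0.83 ± 0.57 SE, and -0.26 ± 0.57 without Dnmt2-/- replicate 2). let-7c-5p was at 12548 and 7750 CPM against 12494 and 3274 CPM. miR-200c-3p, of a family typical of epithelia, was at 2379 and 1762 CPM against 1808 and 251 CPM. For each of these the low value was that of replicate 2, while the miR-10 pair was lower in both Dnmt2-/- libraries per all reads and turns positive under TMM and DESeq2 scaling. miR-10a-5p was at 3344 and 3363 CPM against 3039 and 2760 CPM, and miR-10b-5p at 2344 and 2372 CPM against 1899 and 1842 CPM. miR-148a-3p overlapped, at 5641 and 3318 CPM against 4033 and 4449 CPM. Of 187 microRNAs tested, 71 were lower in both Dnmt2-/- libraries and 4 higher, a share near the 37.4% of all families. Their median log2 fold change was -0.51, beside -0.46 over all families, and -0.24 without Dnmt2-/- replicate 2.

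**Figure D5:**
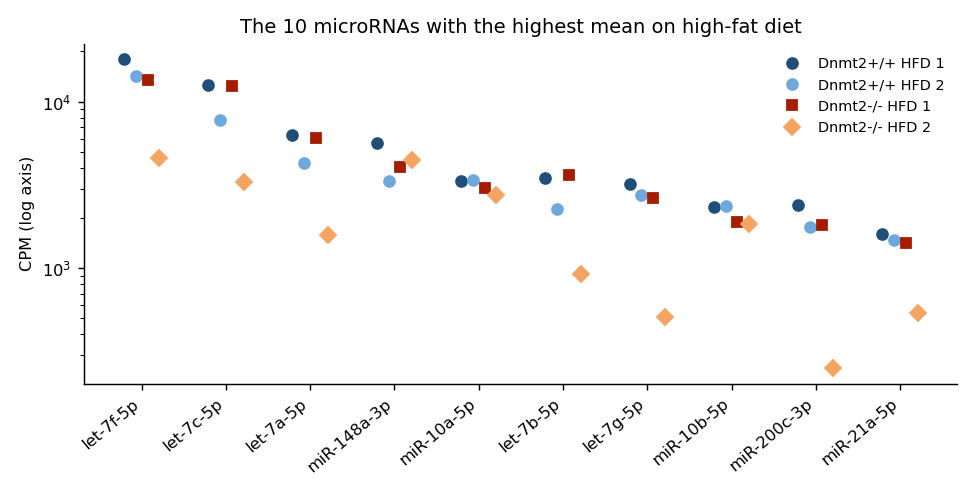
CPM of the 10 most abundant microRNAs on a log axis, one point per HFD library. Dnmt2-/- replicate 2 is the lowest point for each but miR-148a-3p, and the 4 points of miR-10a-5p lie between 2760 and 3363 CPM.

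Marker microRNAs of the cells a sperm sample can hold differed widely between the 2 Dnmt2-/- libraries. The 8 germ cell and sperm markers were all detected. They summed to 789 and 533 CPM in Dnmt2+/+ and to 399 and 889 CPM in Dnmt2-/-. miR-881 made up most of each sum, at 587 and 382 CPM against 270 and 728 CPM. The other members gave no common order. Dnmt2-/- replicate 2 was highest on HFD for miR-34b-3p, at 20.2 CPM, and lowest for miR-449a-5p, at 0.376 CPM. The 5 markers of epididymal epithelium, the miR-200 family, summed to 4026 and 3517 CPM against 3066 and 646 CPM. Like let-7 and the microRNA class they were lowest in Dnmt2-/- replicate 2, while the order of the other 3 libraries differed, and their part in the microRNA values was not tested. The 6 leukocyte markers, of which 5 had a read in each library, summed to 144 and 89.3 CPM against 92.8 and 73.7 CPM.

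Other marker lists were low. miR-206, a skeletal muscle microRNA, was at 64.7 and 65.3 CPM in Dnmt2+/+ and at 75.3 and 0.676 CPM in Dnmt2-/-. The other muscle markers miR-1a, miR-133a, miR-143 and miR-145a had no matched read in all 4. Their arms may be missing from the microRNA reference, so these zeros do not show absence. The limit given for a count of 0 does not apply to them. Red cell markers summed to at most 2.46 CPM and liver markers to at most 11.9 CPM. miR-486a (red cell) and miR-122 (liver) had no matched read, and their arms may be missing from the reference too. miR-126a of endothelium was at 18.5 and 11.7 CPM against 19.2 and 7.82 CPM.

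Single read sequences were tested last, with TMM scaling. Of 50460 sequences 0 (0%) passed in edgeR's quasi-likelihood test and 2167 had an unadjusted p under 0.05, while DESeq2 called 39. Without Dnmt2-/- replicate 1, so that replicate 2 alone stood for the genotype, 320 passed, 315 of them higher. Without replicate 2, 0 passed. The fragment of tRNA-Gly-GCC ending at base 31 was at 27153 and 24947 CPM against 28250 and 54396 CPM, high in replicate 2 alone. The fragment ending at base 30 was at 20933 and 32902 CPM against 36964 and 30111 CPM, with overlap of the genotypes.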

How the data were processed

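The authors deposited, for each sperm library, a list of distinct reads with their counts, raw and not normalized; reads were 18 to 44 nt long. Per the labels, Trizol was used for the RNA and a TruSeq small RNA kit for the libraries. Per the submitters' processing notes the genome was mm10 (GRCm38); the sources used here do not name the trimming tool. Here counts were scaled to counts per 1000000 reads of the library (CPM).

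Reads were matched exactly to 26 tRNA references, 4 rRNA and 2 Y RNA references, and to RefSeq mature microRNAs (the first 20 bases of an arm). The references other than microRNAs were typed in, with a 15-base tag at the 5' end written from memory. Only the bases between this tag and the typed body came from overlapping reads of these data, 8 in each tRNA and 45 in 28S. They may therefore hold errors, and may lack or merge gene copies. Fragments are 5' where they start in the first 3 bases and 3' where they end in the tail. Substitutions were counted in reads with exactly 1, and deleted bases only where 4 bases followed.

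Counts were tested with edgeR 4.0.16 (quasi-likelihood, filterByExpr, Benjamini-Hochberg adjusted p of 0.05) in R 4.3.3, with the 4 sperm groups in one model of 8 libraries; DESeq2 1.42.0 was an alternative. Positions and sites needed 1000 reads in each library and a mean share of 1% (mismatches 0.1%), with the reads of that tRNA or site as offset. Families used all reads as library size and single sequences TMM. Tests of deleted bases and rRNA ends, mismatches without the last base, shares with 1 deleted base and the crossed block were added after seeing the data. In simulated data, 4-fold changes were recovered in 62.5% of 40 changed families among 262, with 1 false call. The rates were 13.5% of 200 sequences among 50460 and 100% of 12 positions among 77, with 2 false calls each. The simulated spread was 1 fixed value for every feature, not taken from these data. These rates therefore do not give the power of the tests here.

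Members and lists were chosen with earlier results of these data known. The named items were fixed tRNAs, rRNAs and Y RNAs, the 10 most abundant microRNAs, 2 of each marker list, end positions over 10%, the 8 highest mismatch sites and the 5 most abundant sequences, of which some are not reported here. The labels do not say that replicate numbers pair the libraries. The correlation of their deviations from the group means was -0.101 over families and -0.165 over sequences. With 2 libraries in each group, this cannot exclude a pairing.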

Additional observations from a re-analysis of the deposited data

Results flagged for a closer look

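The substitution C32T of tRNA-Glu-CTC differed between diets in its genotype effect, by a test of that difference: the log2 fold change of Dnmt2-/- against Dnmt2+/+ on HFD minus that on ND was -5.68 ± 0.42 SE (edgeR adjusted p = 0.00371 over 509 sites with the last base of reads left out). The rate was 1.37%, 0.837%, 0.302% and 0.424% on HFD and 0.0864%, 0.078%, 1.35% and 1.43% on ND, each in the order Dnmt2+/+ 1, Dnmt2+/+ 2, Dnmt2-/- 1, Dnmt2-/- 2. The last base was left out after seeing the data: with all bases of the reads, 0 of 707 sites passed the same test (edgeR, lowest adjusted p 0.723), and this site was at -1.295 ± 0.89 SE (edgeR adjusted p = 0.948). The test of the difference between diets was not rerun without Dnmt2-/- replicate 2. No cause was tested.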

How the results depend on the processing

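Counts of calls were 0 for families, tails, mismatch sites, deleted bases and rRNA ends under each alternative run. For 5' ends, 5 positions passed with only the 4 HFD libraries, among them base 36 of tRNA-Glu-TTC (-1.62) and base 43 of mitochondrial tRNA-His (1.80), and 0 otherwise. For single sequences, DESeq2 called 39, and leaving out 1 library gave 0 to 320, the highest without Dnmt2-/- replicate 1. The genotype difference in 5' tRNA share was 10.9 points with 1 substituted or deleted base allowed. With 1 substitution allowed, the rRNA difference was -6.59 points. With assigned reads as denominator, the differences were 12.5 points for 5' tRNA, -8.18 for rRNA and -3.98 for microRNA. Leaving out 1 library, they ranged from 6.17 to 8.61 for 5' tRNA, from -7.58 to 1.05 for rRNA and from -3.56 to -0.253 for microRNA. The causes were not tested.

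Scaling turned the sign of several negative log2 fold changes. With TMM, 5' fragments were at 0.03 for tRNA-Asp-GTC, 0.36 for tRNA-Glu-TTC and 0.04 for tRNA-Lys-TTT, and 3' fragments at 0.68 for tRNA-Gly-GCC, 0.31 for tRNA-Gly-CCC and 0.23 for tRNA-His-GTG. The rRNAs were at 0.41 (28S), 0.33 (18S) and 0.26 (5.8S), Y3 at 0.45, let-7c at 0.15, let-7a at 0.04, let-7b at 0.16, miR-148a at 0.59, miR-10a at 0.41 and miR-10b at 0.30. With DESeq2, tRNA-Glu-TTC 5' fragments were at 0.23, 3' fragments at 0.57 (tRNA-Gly-GCC), 0.20 (tRNA-Gly-CCC) and 0.10 (tRNA-His-GTG), 28S at 0.31, 18S at 0.23, 5.8S at 0.15, Y3 at 0.30, let-7c at 0.00, let-7b at 0.01, miR-148a at 0.48, miR-10a at 0.30 and miR-10b at 0.18. With 1 substitution allowed, tRNA-Val-AAC/CAC 3' fragments were at -0.05 and 5S at -0.10.

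The labels do not pair the libraries by number. With the replicate block, 0 items passed in each test, and 1161 sequences had an unadjusted p under 0.05 in edgeR. Only tRNA-Val-AAC/CAC 3' fragments (-0.04) and 5S (-0.01) changed sign. With the numbers crossed in the block, 0 families and 0 sequences passed and tRNA-Gly-GCC 3' fragments were at 0.03.

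Leaving out each library in turn changed the sign of these log2 fold changes: 5' fragments of tRNA-Asp-GTC (-1.33 to 0.04) and tRNA-Glu-TTC (-0.58 to 0.06), 3' fragments of tRNA-Gly-GCC (-0.27 to 0.22), tRNA-Val-AAC/CAC (-0.15 to 0.23), tRNA-Lys-CTT (-1.22 to 0.13) and tRNA-His-GTG (-0.81 to 0.35), 28S (-0.88 to 0.11), 5S (-0.46 to 0.39), Y3 (-1.33 to 0.64), let-7c (-1.63 to 0.30), let-7a (-1.73 to 0.19), let-7b (-1.65 to 0.33) and miR-148a (-0.41 to 0.35). Among ends these were tRNA-Glu-CTC 32 (-0.59 to 0.38), tRNA-Gly-GCC 30 (-0.23 to 0.36) and 31 (-0.04 to 0.60), tRNA-His-GTG 31 (-0.06 to 0.93), 33 (-0.60 to 0.25) and 35 (-0.62 to 0.65), tRNA-Pro-AGG 25 (-0.72 to 0.19) and 32 (-0.23 to 0.53), and tRNA-Val-AAC/CAC 23 (-0.08 to 0.79) and 33 (-0.67 to 0.10). Among sites they were tRNA-Cys-GCA G16T (-0.09 to 0.30), tRNA-Glu-TTC G66A (-0.09 to 0.29), tRNA-Leu-AAG C6T (-0.39 to 0.40) and the absent G of tRNA-Gly-GCC (-0.07 to 0.27). The alternatives for 3' start positions could not be run, because no tRNA reached 1000 reads.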
